A study of Mus musculus with 13 samples.

Results

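The 9 genes described here, Rad23b, Btbd19, 5830418K08Rik, Brp44, Rpia, Man1b1, Casc5, Cenpp and Sephs2, were listed as housekeeping and metabolic genes with strong promoter regions in a C/EBPα ChIP-seq experiment on LSK cells. They were selected on the scores of their regions, so the height of those scores describes the list and supports nothing. A region was counted for a gene where its centre lay within 5 kb of the transcription start site (TSS), taken from the annotated transcript with the longest genomic span. By this rule 7 of the 9 genes had a region, with 9 of the 17899 regions between them, and 23 other regions lay within 100 kb.

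The LSK fraction of bone marrow is sorted as negative for lineage markers and positive for Sca-1 and Kit, and holds stem cells along with many multipotent progenitors. In ChIP-seq, DNA pulled down from crosslinked chromatin with an antibody is sequenced, and the candidate regions were called from these reads against a mock precipitation with IgG. The strain of the C/EBPα library is given as C57BL/6 with floxed Cebpa and Mx1Cre, a Cre recombinase that is induced in blood cells and other tissues, and its labels give no genotype, so that whether Cebpa was deleted in these cells is not settled here. The other 12 of the 13 samples, including a second C/EBPα library from LSK cells labelled wild type without Mx1Cre, were not analysed here. Each region carries a score, 10 times the negative log10 of the p-value from the peak caller, which reached from 50 to 3104.89 with a median of 73.8. A single list of regions was analysed, deposited with 1 library, so no value below has a replicate check, and the list holds no read numbers, so that the depth behind a region is unknown. No expression was measured in this library, and the list does not say which gene a region acts on.

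C/EBPα is a leucine zipper transcription factor that binds DNA as a dimer. Its preferred site is palindromic, since each partner of the dimer contacts the same letters on opposite strands, and related leucine zipper factors such as ATF4 can pair with C/EBP proteins on composite sites. Promoters of widely expressed genes mostly lie in CpG islands, stretches rich in G and C that keep their CpG dinucleotides, where ETS factors, SP1, NF-Y, NRF1 and YY1 are common binders. In blood formation C/EBPα is best known for driving progenitors toward granulocytes and monocytes.

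Among the listed genes, the highest regions shared the palindrome TTGCGCAA. This is the form of the C/EBP core word TTGCNNAA with G and C in the middle. It occurred exactly once in each of 6 regions, those of Rad23b, Btbd19, 5830418K08Rik, Brp44, Rpia and Man1b1. The sites of 5 of them are shown because they carry the main pattern among the genes. Each is written 5′ to 3′ on the strand of its gene, with 10 bases on both sides and the palindrome in capitals, in mm9.
Btbd19, chr4:116793149-116793176, minus strand: agagtagggaTTGCGCAAtgggcccaaa
5830418K08Rik, chr9:15162341-15162368, minus strand: taatggcccgTTGCGCAAgctgcgcgtg
Brp44, chr1:167391189-167391216, plus strand: gccgttaagcTTGCGCAAcgcctcgccc
Rpia, chr6:70742197-70742224, minus strand: gcggggcaggTTGCGCAAgcgagcgggt
Man1b1, chr2:25188214-25188241, plus strand: ggttctgagcTTGCGCAAcgaccgataa
The bases next to the palindrome differed between the genes. Among these 5, the 10 letters read GTTGCGCAAG at 5830418K08Rik and Rpia, CTTGCGCAAC at Brp44 and Man1b1, and ATTGCGCAAT only at Btbd19.

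The regions of the other genes are shown because they lacked the palindrome. The stretch at Casc5 runs from 10 bases before the first of 3 capital words to 10 bases after the last. In the order printed, the capitals mark the B box and the A box of tRNA genes, both reading on the minus strand, and a YY1 word, which also reads on the minus strand. The stretch at Sephs2 reaches 100 bases to either side of the C/EBP word nearest the centre of its region, and its capitals mark an E-box, that C/EBP word and a CCAAT box. On the minus strand shown, the C/EBP word and the CCAAT box appear as TTGTGCAA and ATTGG.
Casc5, chr2:118872488-118872657, plus strand: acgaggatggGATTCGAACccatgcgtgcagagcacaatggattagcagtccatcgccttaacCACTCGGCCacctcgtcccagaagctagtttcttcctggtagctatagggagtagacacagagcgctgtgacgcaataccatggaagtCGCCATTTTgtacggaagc
Sephs2, chr7:134417601-134417808, minus strand: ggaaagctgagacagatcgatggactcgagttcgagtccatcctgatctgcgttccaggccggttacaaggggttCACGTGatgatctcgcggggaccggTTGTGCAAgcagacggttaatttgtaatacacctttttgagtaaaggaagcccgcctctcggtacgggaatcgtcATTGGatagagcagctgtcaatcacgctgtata

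The scores that selected the genes spanned about an order of magnitude. Rad23b encodes a protein that recognizes DNA damage together with XPC in nucleotide excision repair and carries ubiquitinated proteins to the proteasome. Its region, chr4:55362322-55363136, had a score of 2407.58, rank 2 of all regions, and its centre lay 186 bp upstream of the TSS. The region of 5830418K08Rik, the gene now named Cep295 whose product acts in centriole assembly, had a score of 1904.75, rank 5, and was centred in coding exon 1, 46.5 bp downstream of the TSS (chr9:15161800-15162571).

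Next came metabolic enzymes and a carrier. Brp44, now named Mpc2, encodes a subunit of the carrier that brings pyruvate into mitochondria, and its region chr1:167390627-167391671 scored 1757.38, rank 7, centred 19 bp upstream of the TSS. Rpia, the isomerase that makes ribose 5-phosphate in the pentose phosphate pathway, had a region of 1659.51, rank 8, centred 30 bp upstream (chr6:70741998-70742514). Man1b1, a mannosidase that trims glycans of misfolded proteins in the endoplasmic reticulum, had a region of 1510.33, rank 11, centred 129 bp downstream of the TSS in the 5′ UTR part of exon 1 (chr2:25188021-25188735).

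The remaining pair stood well under these. Casc5, now named Knl1, encodes the kinetochore scaffold that recruits spindle checkpoint proteins, and its region chr2:118872365-118872809 scored 646.75, rank 64, centred 268 bp upstream. Sephs2, the selenophosphate synthetase that supplies selenium for selenocysteine, had a region of 246.29, rank 260, centred 315.5 bp upstream (chr7:134417241-134418256). All 7 regions were centred within 500 bp of the TSS, and all scored 200 or more.

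These counts belong to the selection and are set beside their backgrounds only as a description. Of all regions, 10.4% had a centre within 5 kb of a protein-coding TSS, and of those 7.28% scored 200 or more. Of these 1867 regions within 5 kb, 439 were centred within 500 bp. Outside the listed genes, 95 regions within 1 kb of a TSS scored 200 or more, and 78 of them were centred within 500 bp. A centre within 500 bp was thus common among other high regions within 1 kb. Of 22367 protein-coding genes, 8.81% had a region within 5 kb and 0.724% had one that scored 200 or more. Man1b1 and Sephs2 each had a second, weaker region within 5 kb. That of Man1b1 scored 58.98 in intron 3, 3248.5 bp downstream of the TSS, and that of Sephs2 scored 96.47 at 1570.5 bp upstream.

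**Figure D1:**
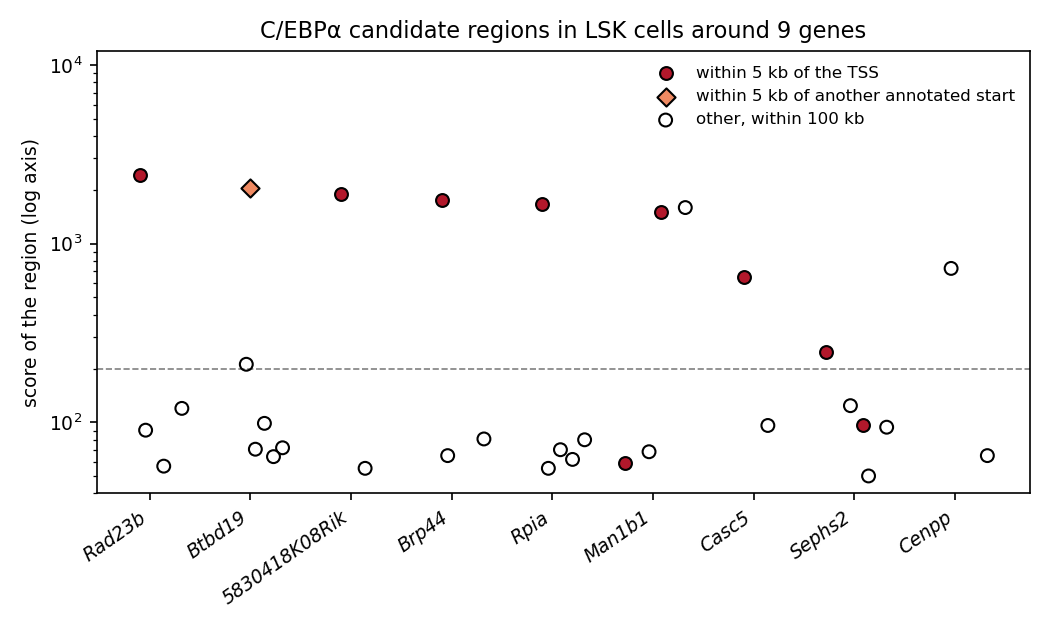
Score of each candidate region, on a log axis, for the 9 genes. Filled circles are regions within 5 kb of the TSS, the diamond is the Btbd19 region, open circles are the other regions within 100 kb, and the dashed line marks a score of 200. The highest filled circles run from Rad23b at 2407.58 to Sephs2 at 246.29, and 20 of the 23 open circles lie under 200.

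With the TSS used, the data went against the description as strong promoter regions for 2 of the 9 genes. Btbd19, a BTB domain gene of little known function, had a region of 2055.49, rank 3 of all regions, but its centre lay 5150 bp downstream of the TSS used, just outside the limit, and it is counted here only by another annotated start. The distances nearest the limit on either side were therefore the 3248.5 bp of Man1b1 and the 5150 bp of Btbd19. The region, chr4:116792648-116793594, lay at the 3′ end of the gene. The TSS used belongs to a transcript without a coding sequence. The coding transcripts start 5142 and 1869 bp from the centre, on either side of the limit. In the shorter of them, which starts at 1869 bp, the centre fell in the last exon outside the coding part. The palindrome at chr4:116793159-116793166 fell in the coding part of that transcript. The nearest annotated start of any Btbd19 transcript, 749 bp from the centre, belongs to a short transcript without a coding sequence.

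Cenpp encodes a protein of the inner kinetochore, and no region lay within 5 kb of its TSS. The nearest was 29459 bp upstream, chr13:49777310-49777856, with a score of 726.65, rank 48, and it was centred 114 bp downstream of the TSS of Iars in intron 1 of that gene. Iars encodes the cytosolic isoleucyl-tRNA synthetase. The only region inside the gene body of Cenpp within this range scored 65.15 and lay in intron 5, 96407 bp downstream of the TSS.

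The place of the palindrome relative to the TSS varied from gene to gene. At Rpia and Brp44 it lay in the 5′ UTR, with its nearest base 12 and 31 bp downstream of the TSS. At Man1b1 its nearest base was 18 bp upstream, at 5830418K08Rik 119 bp upstream and at Rad23b 257 bp upstream. From the centre of the region it lay 41.5 bp away at Btbd19 and 169 bp at 5830418K08Rik, the extremes of the 6, with a median of 64 bp. The list gives no summits, so the position of the highest read density relative to the palindrome was not tested.

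**Figure D2:**
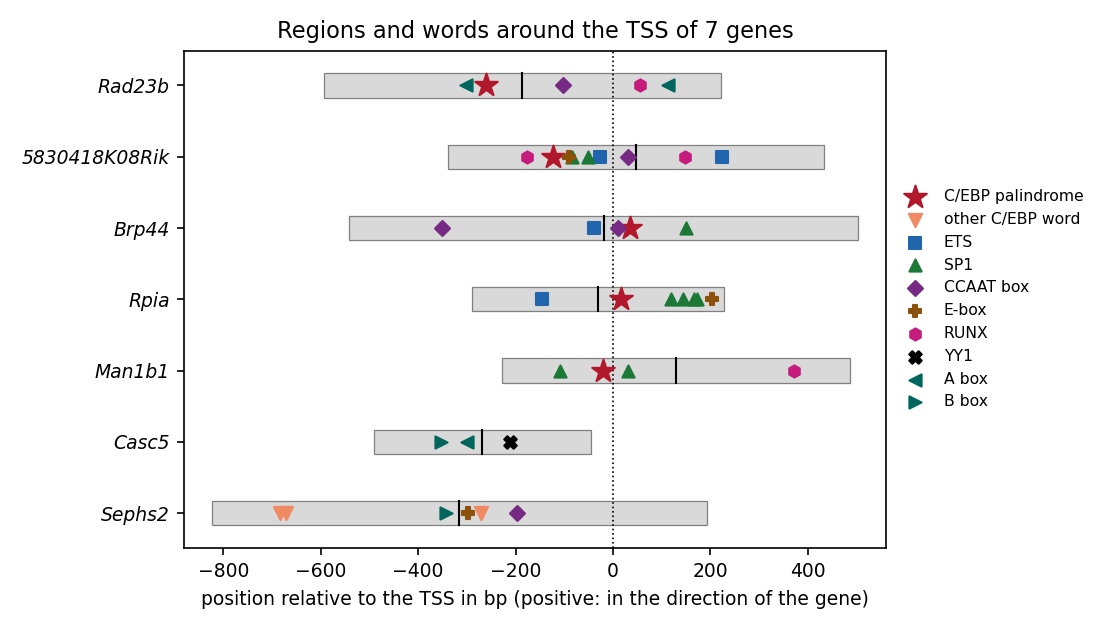
Lead regions of 7 genes as grey bars on a scale of bp from the TSS (dotted line), with a black line at each centre and markers at the words found on either strand. The palindrome (star) lies between 257 bp upstream and 31 bp downstream of the TSS in the upper 5 bars and is missing from the bars of Casc5 and Sephs2.

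Counted from region start to end, 5 of the 7 lead regions, meaning the highest region of each gene, held TTGCGCAA, or 6 of 8 with Btbd19. This word was picked after the regions had been seen. It stood in 8.15% of the 638 regions within 1 kb of a protein-coding TSS (95% interval 6.15 to 10.6, exact binomial, counting error only) and in 1.02% of all regions. Since the genes were selected on score, the closer background is that of other high regions. Of the 95 regions within 1 kb of a TSS that scored 200 or more and belonged to none of the 9 genes, 27.4% held it. Their median score of 392.69 was still far under the 1659.51 of the 7 lead regions. Of the 20 highest regions within 1 kb of a TSS outside the 9 genes, 11 held the palindrome. The wider C/EBP word TTGCNNAA, which includes it, stood in 17 of the same 20. Of the 20 highest regions within 5 kb of a TSS, 15 held the palindrome, and several of the genes described here are part of those 20.

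Outside the 9 genes the palindrome and the score went together, and so did the other words compared in this way. Of the regions within 1 kb of a TSS outside the 9 genes, the 47 with the palindrome had a median score of 298.04 and 55.3% of them reached 200. The 584 without it had a median of 79.4, and 11.8% reached 200. Higher scores with a word were thus not particular to the palindrome. With the CRE word TGACGTCA 53.3% reached 200 against 14.1% without it, though only 15 regions held that word. For the ETS word CCGGAAG the shares were 32.3% and 12.1%, and for the SP1 word CCCGCCC 25.2% and 9.07%. For TTGCNNAA, which includes the palindrome, they were 29.3% and 5.76%. The palindrome itself is rare near promoters. Only 90 of the 22367 genes, 0.402%, had it within 500 bp of the TSS, the listed genes included. Of these, 44 had a region within 1 kb, which is 48.9%, against 2.85% of the genes without it. Listed genes are also among the 44, so the selection fixed part of this difference, and no count without them was made. Most copies of the palindrome were not in a region, as 182 of the 2120 in the genome, 8.58%, lay in one. Regions with the palindrome were also wider, with a median of 796 bp against 622.5 bp, and the part of width in the scores was not tested.

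**Figure D3:**
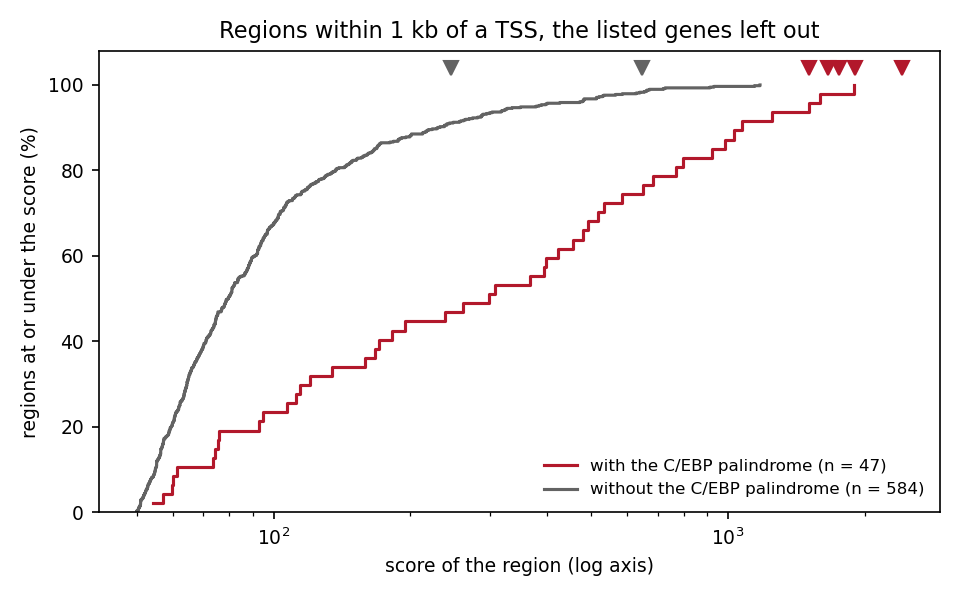
Cumulative share in % of the regions within 1 kb of a TSS, the 9 genes left out, by score on a log axis, for the 47 regions with the palindrome (red) and the 584 without (grey). Triangles above mark the lead regions of 7 genes in the same colours. The red curve lies to the right, with medians of 298.04 and 79.4.

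The regions of Casc5 and Sephs2 differed from the other lead regions in lacking the palindrome. The Casc5 region held no TTGCNNAA word. It held both the A box (GGCNNAGTG) and the B box (GTTCGANTC), the internal promoter elements at which TFIIIC is recruited to tRNA genes, with the B box 85 bp and the A box 32 bp from the centre. Both words were found together in 9 of all 17899 regions, 0.0503%, and the Casc5 region was the only one of the 638 within 1 kb of a TSS. RefSeq, in the later assembly GRCm38.p6, lists the tRNA gene n-TSgct7 directly before Knl1 in the order of genes along the chromosome. The A box word alone was common, as it stood in 12.1% of the 638 and also in the Rad23b and Btbd19 regions. The YY1 word (AANATGGCG) lay 56 bp from the centre. It stood in 4.86% of the 638 and in 11.6% of the 95 outside the listed genes that scored 200 or more. The A box and the B box were searched after the sequence had been seen.

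The Sephs2 region held 3 C/EBP words without the palindromic middle. One copy of TTGCACAA lay 44 bp from the centre, and TTGCATAA and a second TTGCACAA lay at 356 and 369 bp. An E-box, CACGTG, the word of MYC and USF factors, lay 18 bp from the centre. The regions of 5830418K08Rik, Rpia and Btbd19 also held an E-box. A B box word, found in 0.94% of the 638 regions within 1 kb of a TSS, stood 26.5 bp from the centre. No A box lay in the region.

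Words of other promoter factors were searched on both strands in a window of 70 bp to each side of the centres of the 7 lead regions and are given beside their share in the 638 regions within 1 kb of a TSS, and then in the 95 of them outside the listed genes that scored 200 or more. The C/EBP word TTGCNNAA stood in 3 regions, those of Brp44, Rpia and Sephs2, which is 42.9%, against 18.0% and 44.2%. The ETS word CCGGAAG stood in 1, that of Brp44, 19 bp from the centre, against 4.86% and 9.47%. The SP1 word CCCGCCC stood in none of the 7, against 13.2% and 31.6%. The CRE word TGACGTCA, bound by CREB and ATF factors, stood in none, against 0.940% and 4.21%. The share of the C/EBP word was thus near that of other regions of high score. With 7 regions such shares are loose. The exact binomial 95% interval for 3 of 7 runs from 9.90% to 81.6%, and that for 0 of 7 reaches 41%. These intervals hold counting error only, as the genes were selected and are no random sample.

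From start to end of the regions more words appeared, and the shares of the same backgrounds are given in the same order. The C/EBP word was found in 6 of the 7 regions, 85.7%, against 40% and 76.8%. The ETS word was found in 3, those of 5830418K08Rik, Brp44 and Rpia, which is 42.9%, against 15% and 31.6%. The SP1 word was found in 4, those of 5830418K08Rik, Brp44, Rpia and Man1b1, which is 57.1%, against 37.3% and 62.1%. Rpia held 4 copies of it, all in coding exon 1. The CCAAT box (CCAAT), at which NF-Y binds, was found in 4, against 56.3% and 69.5%. The E-box was found in 3, against 17.2% and 22.1%, and the RUNX word TGTGGT in 3, against 35.6% and 34.7%. The SP1 word and the CCAAT box were less frequent in the 7 than in the other regions of high score, and with 7 regions none of these differences is established. No lead region held the CRE word, the NRF1 word GCGCATGCG or the composite C/EBP and ATF word TGATGCAA, which stood in 2.35%, 2.51% and 4.55% of all 638 regions and in 8.42%, 7.37% and 9.47% of those of high score. Words that differed in any fixed letter were not counted. The Casc5 stretch shown above held TGACGCAA, for example, which differs from TGATGCAA in a single letter. A match is a string of letters in this window, and none of these factors was measured.

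**Figure D4:**
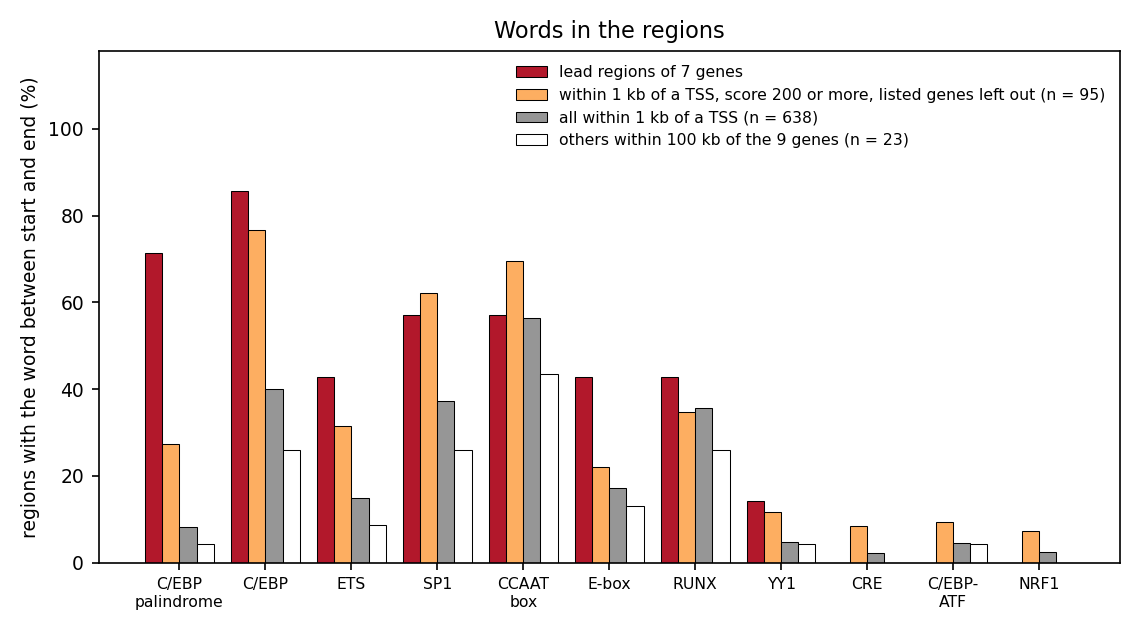
Share in % of regions with each word between start and end, for the lead regions of 7 genes, the 95 other regions within 1 kb of a TSS that scored 200 or more, all 638 within 1 kb of a TSS, and the 23 other regions within 100 kb. The palindrome stands at 71.4%, 27.4%, 8.15% and 4.35% in this order, while the RUNX word and the CCAAT box lie at like levels in the first 3 sets.

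Several of these words lay close together upstream of 5830418K08Rik, and the stretch is shown for that reason. On the minus strand, 100 bases to either side of the palindrome, the capitals mark in order a RUNX word, the palindrome, an E-box that shares 1 base with an SP1 word, a second SP1 word and an ETS word. The RUNX, SP1 and ETS words appear here as their reverse complements. The nearest base of the ETS word lay 24 bp upstream of the TSS, and those of the SP1 words 49 and 81 bp upstream.
5830418K08Rik, chr9:15162251-15162458, minus strand: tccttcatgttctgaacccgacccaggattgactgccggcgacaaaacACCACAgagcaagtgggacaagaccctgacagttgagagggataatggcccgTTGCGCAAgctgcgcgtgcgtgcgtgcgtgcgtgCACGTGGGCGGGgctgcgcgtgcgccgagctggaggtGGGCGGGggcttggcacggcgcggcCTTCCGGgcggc
The Rad23b region had a CCAAT box with its nearest base 100 bp upstream of the TSS. It held neither the ETS word CCGGAAG nor the SP1 word CCCGCCC, but the shorter SP1 word CCGCCC did occur near its palindrome. The G and C content of the Rad23b region, 66.7%, was the highest of the 7.

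Base composition set most of these regions apart from their surroundings. The CpG ratio is the number of CpG dinucleotides over that expected from the C and G content, and a region was called island-like where the ratio was at least 0.6, the G and C content at least 50% and the width at least 200 bp. The 7 lead regions had a median ratio of 0.866, from 0.761 at Brp44 to 0.95 at Man1b1, and 6 of 7 were island-like. Of the regions within 1 kb of a TSS, 43.6% were island-like, with a median ratio of 0.549. Among the 95 other regions that scored 200 or more within 1 kb of a TSS, 74.7% were island-like, with a median ratio of 0.760. The exception among the 7 was Casc5, whose ratio was 0.902 at a G and C content of 44.7%. The Btbd19 region was island-like, with a ratio of 0.697 and a G and C content of 55.1%, although it lay at the end of the gene.

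The weaker regions of the same genes had another composition. The second region of Man1b1 held no CpG at all, and that of Sephs2 had a ratio of 0.170. The 23 other regions within 100 kb had a median ratio of 0.293, and 3 of them were island-like. Widths of the lead regions ran from 445 bp at Casc5 to 1045 bp at Brp44, with a median of 772 bp against 630 bp for all regions within 1 kb of a TSS. Width did not follow the score among the 7, as Sephs2, the lowest in score, was 1016 bp wide and Rpia only 517 bp.

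**Figure D5:**
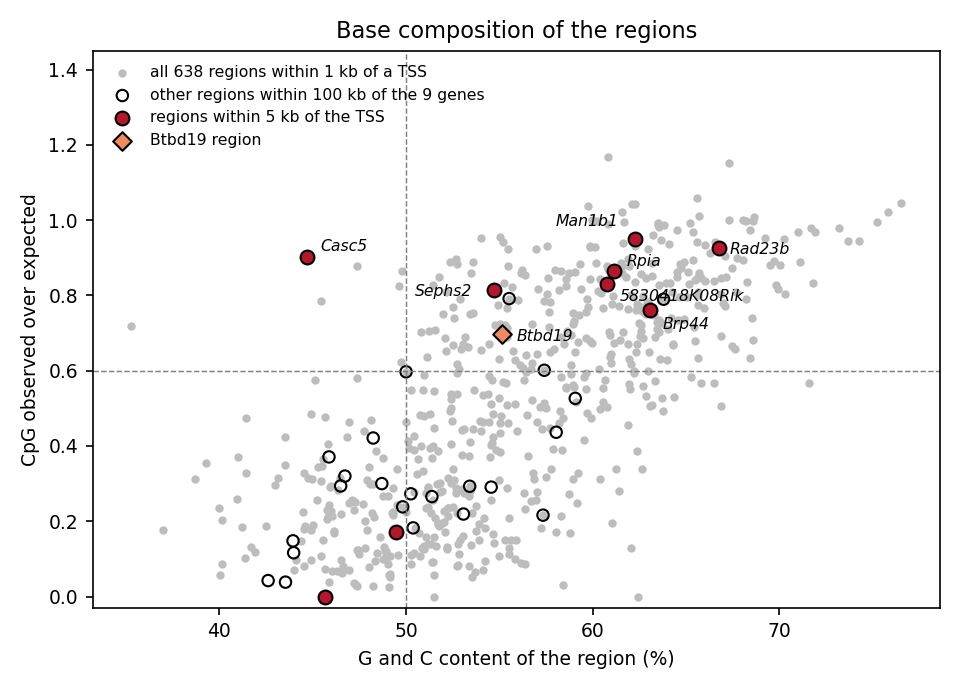
G and C content in % (x axis) and CpG observed over expected (y axis) of the 638 regions within 1 kb of a TSS (grey), the regions within 5 kb of the TSS of the listed genes (red), the Btbd19 region (diamond) and the 23 other regions within 100 kb (open). The named regions lie above a ratio of 0.6 and, except for Casc5, right of 50%, while the red points near the bottom are the second regions of Man1b1 and Sephs2.

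Promoters of CpG island type are often shared by 2 genes that start head to head. Such a partner within 1000 bp was annotated for 2 of the 9 genes, against 7.48% of all protein-coding genes. Brp44 and Dcaf6, which encodes a WD repeat protein, start 572 bp apart, and the Brp44 region spans most of the stretch between them. Its palindrome lay on the Brp44 side, within the Brp44 transcript. Cenpp and Nol8, a nucleolar protein gene, start 595 bp apart, and no region overlapped that stretch. With noncoding genes counted, Man1b1 also had a partner, the lincRNA AA543186 at 158 bp, and its region overlapped the stretch between both starts. The start of Tctex1d4 lay 1147 bp from that of Btbd19, with no region between them.

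The 23 regions within 100 kb of these genes had a median score of 72.1, near the 73.8 of all regions, and 5 reached 100. The highest, chr2:25278320-25279280 with 1591.43, lay 273 bp upstream of Fut7, the fucosyltransferase that makes selectin ligands on leukocytes, and 90551 bp from the TSS of Man1b1. It was the only one of the 23 with the palindrome, at chr2:25278704-25278711, and unlike the Man1b1 region it had a low CpG ratio of 0.216. The Iars region came next. A region in intron 3 of Eif2b3, a translation initiation factor gene, scored 211.34 and lay 84013 bp from the TSS of Btbd19. The remaining regions over 100 were one at 123.99, 94 bp upstream of Cd2bp2 near Sephs2, and one at 119.72, 9960 bp upstream of Rad23b itself.

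The Iars region held the composite word TGATGCAA, which lay in the 5′ UTR of Iars at chr13:49777506-49777513. It is shown because none of the lead regions had it. The word is in capitals, with 10 bases on both sides on the minus strand, which is that of Cenpp.
Iars, chr13:49777496-49777523, minus strand: cgtctggaggTGATGCAAtactgacagt

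Genes that share a pathway, complex or domain with the listed genes were looked up in 9 lists by function, and the cytosolic aminoacyl-tRNA synthetases were added as another because of the Iars region. Outside the 9 genes, 6 of the 104 genes of the 9 lists found in the annotation had a region within 5 kb of the TSS, and 1 had one that scored 200 or more, beside 8.81% and 0.724% of all protein-coding genes. With the synthetases the counts were 13 of 124 and 4. Of the other genes of the pentose phosphate pathway 0 of 8 had a region, of mitochondrial pyruvate entry 0 of 7, of the outer kinetochore network around Casc5 0 of 9, of selenoprotein synthesis 0 of 10, of centriole assembly 0 of 10 and of the BTBD genes 0 of 11. At the background of 8.81%, lists of this length will often hold no gene with a region, so these counts set nothing apart.

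In nucleotide excision repair 2 of 21 other genes had a region, Ercc5 with 110.09 at 4902 bp upstream and Xpa with 50.76, and neither came near the 2407.58 of Rad23b. In mannose trimming 1 of 12 did, Edem2 with 63.17. In the inner kinetochore 3 of 16 did, Itgb3bp with 54.98, Cenpn with 53.09 and Cenpl with 248.41. The Cenpl region was centred 219 bp upstream of the TSS of that gene.

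The cytosolic aminoacyl-tRNA synthetases, had 7 of 20 genes with a region and 3 that scored 200 or more. Since Iars led to the list, the count without it is 6 of 19 with a region and 2 at 200 or more, beside the 8.81% and 0.724% of all protein-coding genes. The 3 high ones were Iars with 726.65, Nars with 316.8 and Aars with 286.48, and Sars followed with 169.18. The regions of these 4, Iars included, each held the composite word TGATGCAA. That word stood in 4.55% of the regions within 1 kb of a TSS. Among those outside the listed genes that scored 200 or more, 9.47% held it. The regions of Rars with 85.85, Cars with 69.32 and Gars with 66.94 did not hold it. The lists were chosen with earlier results of these data known, so these counts are a description.

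The 5 highest regions within 5 kb of any protein-coding TSS were those of Gm10925, Rad23b, 5830418K08Rik, Cotl1 and Brp44. Gm10925, at 3104.89, lacked the palindrome, was 5130 bp wide and had a G and C content of 36.8%. Cotl1, an actin-binding protein gene, had a region of 1895.87 centred 72 bp upstream of the TSS with the palindrome and a CpG ratio of 0.847, which lie within the range of the listed genes.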

How the data were processed

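C/EBPα ChIP-seq regions deposited with 1 library from LSK cells were used. Reads had been aligned to mm9 by the authors using Bowtie (0.12.8 in the submitters' processing notes) and regions called with MACS (1.4.2) against IgG at a p-value of 1e-05. No source states whether the call pooled the LSK libraries. The score in the deposited list of candidate regions is 10 times the negative log10 of the p-value. It precedes the study's later filters on peak height, IgG level and presence in both libraries. The paper kept only a small part of its candidates after filtering, so shares over all regions here describe candidates and not its final set. Read numbers are not given, so depth and precision are unknown.

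The TSSs came from GENCODE M1 on NCBIM37, which is mm9, and sequence from the same assembly. The 10 words were counted on both strands and tested on simulated sequence. No test between groups was made. The members and gene lists were chosen with earlier results of these data known. Named were the 9 genes, head-to-head partners, the nearest genes of surrounding regions that scored 100 or more, list genes with a region, and the 5 highest promoter regions. A gene and a sequence that these rules cover are not reported here. Alternatives are given in the closing section. Python 3.11.15, numpy 2.4.6, pandas 2.3.3, scipy 1.17.1, pysam 0.24.0 and matplotlib 3.10.9 were used.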

Additional observations from a re-analysis of the deposited data

How the results depend on the processing

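Of the 61 values computed under another setting, 37 stayed within 1.5 times the reported one and 24 moved further. The number of listed genes with a region was 7 within 1 kb and at scores of 100 or 200, and 8 with any annotated start. The surrounding regions numbered 12 rather than 23 within 50 kb and 5 at a score of 100 or more, where their median score was 211.34. The C/EBP word went from 3 regions to 6 from start to end. The ETS word went from 1 to 3 within 150 bp, 3 from start to end and 4 with the shorter word GGAAG, and the SP1 word from 0 to 2, 4 and 2 (CCGCCC). The palindrome, chosen after seeing the data, stood in 5 regions from start to end, in 3 within 150 bp and in 2 within 70 bp of the centre. Head-to-head partners numbered 0 rather than 2 within 500 bp. List genes with a region numbered 7 rather than 13 within 1 kb, 4 at a score of 200 or more and 6 without the aminoacyl-tRNA synthetases. The settings with Btbd19, without the synthetases or Iars, the palindrome, the tRNA boxes and other partner distances were added after seeing the data. No paired analysis was possible because a single list of regions was analysed and no result comes from a test. The list has neither summits nor read numbers, so word distances depend on the region's borders.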

Other observations

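Some of the weaker regions around the listed genes lay at the starts of other genes. Plk3, a cell cycle kinase gene near Btbd19, had a region of 64.29 centred 2 bp upstream of its TSS with a CpG ratio of 0.790. Itgal, an integrin gene of leukocytes near Sephs2, had one of 93.95 centred 75 bp downstream of its TSS, with a ratio of 0.293. Dctpp1, a nucleotide pyrophosphatase gene, had one of 50.13 centred 316.5 bp upstream. These 3 genes were chosen after their values were seen.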
